A study of Mus musculus with 3 samples.

Results

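The 10 genes described here encode phosphatases that switch off MAP kinases, and they are a fixed list taken by name from the 21887 protein-coding genes of the mouse: Dusp1, Dusp2, Dusp4, Dusp5, Dusp6, Dusp7, Dusp8, Dusp10, Dusp14 and Dusp16. The list was chosen with earlier results of these data known. Every EZH2 interval from 10 kb before to 10 kb after each gene was taken. The values come from chromatin immunoprecipitation and sequencing (ChIP-seq) of EZH2 in macrophages grown from the bone marrow of adult C57BL/6 mice in medium with M-CSF. The groups were macrophages given lipopolysaccharide (LPS) for 2 h and untreated macrophages (NT), with 1 EZH2 library each, and an input DNA library for which no intervals were used. Whether marrow of several mice was pooled is not stated in the sources used here. Without replicates, no difference below has a replicate check and none was tested.

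MAP kinases of the ERK, JNK and p38 families carry the signal of Toll-like receptor 4, the receptor of LPS, to the transcription of inflammatory genes. Dual-specificity phosphatases remove phosphate from both the threonine and the tyrosine of the activated kinase, and several are themselves transcribed in response to the signal that they end. In macrophages Dusp1 is the best known of these brakes. EZH2 is the enzyme of polycomb repressive complex 2 that methylates lysine 27 of histone H3, and in mammals the complex is found mainly at promoters rich in CpG dinucleotides.

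The deposited file lists intervals for each library and 1 summit per interval, with a whole number at the summit, called the summit value here. Its unit, the read depth and any scaling between libraries are not given in the sources used here, so a lower value or a missing interval in a library cannot be told apart from a shallower library. The LPS list had 4651 intervals with summit values from 7 to 100 and a median of 16, and the NT list had 9643 intervals with values from 11 to 253 and a median of 27. The stimulated track is named TLR in the file and was taken as the LPS sample, which is the one stimulated EZH2 library in the labels. Occupancy data hold no expression, so the macrophage label could not be checked by marker levels. Of 8 macrophage marker genes, 1 had an LPS interval and 4 an NT interval within 10 kb, against 21.2% and 46.0% of all genes. The NT summits counted for Cd68 and Cd14 lay 5702 and 8449 bases away, nearest to Eif4a1 and Tmco6. Those for Mertk and Fcgr1 lay inside the gene. Of 16 markers of other cell types, 4 had an interval in each library. These were 3 of 4 stromal and 1 of 4 B cell markers, with none among T cell or neutrophil markers. The NT summit counted for Pdgfrb, a stromal marker, lay 8711 bases away, nearest to Gm52351.

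Promoter sequence was at hand for 9 of the 10 genes, from RefSeq on GRCm38.p6, the assembly behind mm10, and Dusp4 was the one without an entry. The sequences below are the 250 bases before the listed transcription start, read 5′ to 3′ on the strand of the gene, with each CpG in capitals. The first 4 are shown because they lay in or met an interval of both libraries.
Dusp1, chr17:26508473-26508722, minus strand: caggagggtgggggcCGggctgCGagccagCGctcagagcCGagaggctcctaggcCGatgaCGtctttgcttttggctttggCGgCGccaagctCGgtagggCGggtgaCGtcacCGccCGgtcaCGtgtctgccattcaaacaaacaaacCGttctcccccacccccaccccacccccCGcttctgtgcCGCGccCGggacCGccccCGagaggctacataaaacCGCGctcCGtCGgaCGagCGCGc
Dusp2, chr2:127335909-127336158, plus strand: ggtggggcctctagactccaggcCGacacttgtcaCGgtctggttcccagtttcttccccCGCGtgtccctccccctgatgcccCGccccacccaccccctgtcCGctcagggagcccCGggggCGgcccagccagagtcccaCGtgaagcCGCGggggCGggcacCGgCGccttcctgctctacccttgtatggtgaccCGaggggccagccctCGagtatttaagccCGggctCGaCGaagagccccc
Dusp8, chr7:142095285-142095534, minus strand: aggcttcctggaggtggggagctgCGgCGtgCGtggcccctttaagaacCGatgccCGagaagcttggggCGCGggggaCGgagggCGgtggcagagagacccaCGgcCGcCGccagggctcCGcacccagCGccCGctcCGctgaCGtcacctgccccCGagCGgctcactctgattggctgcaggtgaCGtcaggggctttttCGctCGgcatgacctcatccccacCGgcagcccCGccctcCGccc
Dusp14, chr11:84068358-84068607, minus strand: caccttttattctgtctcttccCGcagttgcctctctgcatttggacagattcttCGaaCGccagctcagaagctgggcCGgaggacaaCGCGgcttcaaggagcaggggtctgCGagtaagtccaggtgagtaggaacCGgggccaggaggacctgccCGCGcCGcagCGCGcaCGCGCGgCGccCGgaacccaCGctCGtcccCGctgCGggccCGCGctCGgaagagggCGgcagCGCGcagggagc
The next 2 are shown because their genes had no interval in either library within 10 kb.
Dusp5, chr19:53528895-53529144, plus strand: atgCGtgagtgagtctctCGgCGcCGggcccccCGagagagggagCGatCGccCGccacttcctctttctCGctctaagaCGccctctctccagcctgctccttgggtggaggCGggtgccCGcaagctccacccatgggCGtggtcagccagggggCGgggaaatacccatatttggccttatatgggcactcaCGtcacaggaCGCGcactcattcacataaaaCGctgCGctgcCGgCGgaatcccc
Dusp16, chr6:134792629-134792878, minus strand: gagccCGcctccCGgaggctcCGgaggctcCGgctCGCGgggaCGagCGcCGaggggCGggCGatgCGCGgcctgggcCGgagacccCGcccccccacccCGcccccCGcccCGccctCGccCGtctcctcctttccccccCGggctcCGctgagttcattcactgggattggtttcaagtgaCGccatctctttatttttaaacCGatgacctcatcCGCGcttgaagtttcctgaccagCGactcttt

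All 9 promoters were rich in CpG. They held 16 to 34 CpG in 250 bases, with a median of 25, against a median of 10 over 21263 listed promoters of protein-coding genes. Dusp1 held 28, Dusp2 held 19, Dusp8 held 25 and Dusp14 held 28 CpG. Dusp5 held 21 and Dusp16 held 27 CpG, so the promoters of the genes without an interval lay inside the range of those with one. The listed start of Dusp16, 134792628, lies inside the gene, whose outer end on the minus strand is 134807063. The same holds for Dusp8, with a listed start of 142095284 and an outer end of 142095907. It also holds for Dusp14, with 84068357 and 84069256. Sequence at these outer ends was not examined. The listed start of Dusp7, 106368632, also lies inside its gene, which begins at 106368560. Distances from the start given below are from the listed start. The highest number, 34, was at Dusp7, and the lowest, 16, at Dusp6.

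An LPS interval met 4 of the 9 promoter stretches (Dusp1, Dusp2, Dusp8 and Dusp14), against 11.6% of all listed promoters. An NT interval met 6 of the 9, those of the same genes and of Dusp6 and Dusp10, against 32.1% of all. Over all promoters the median CpG number was 18 in those that met an LPS interval, 19 in those that met an NT interval and 5 in those that met none. Among the 7247 promoters with at least as many CpG as the poorest of the 9, an LPS interval met 21.2% and an NT interval met 60.9%. The NT count of the phosphatase promoters, 6 of 9, was thus near the share among these promoters. The LPS count, 4 of 9, lay above their share of 21.2%, and neither difference was tested. The cut sets only a lowest CpG number and does not match the median of the 9.

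Elements known to bind stimulus-responsive factors were looked for in the same 250 bases, on both strands, with motifs chosen after the sequences had been seen. The cAMP response element TGACGTCA stood in 2 of the 9 promoters, against 1.92% of all. Dusp1 had 1, beginning 143 bases before the start, and Dusp8 had 2, beginning 107 and 63 bases before it. Its core TGACG, of which each full element holds 2 that overlap, stood in 4 of the 9 promoters, against 20.2% of all. These were Dusp1 with 3, Dusp8 with 4, and Dusp5 and Dusp16 with 1 each. A CArG box, the element of serum response factor, occurred 2 times in Dusp5, beginning 82 and 72 bases before the start, and in 1.39% of all promoters. The AP-1 element TGACTCA was in none of the 9 promoters and in 4.06% of all. These are matches of letters and not measured binding sites. The cAMP response element and its core each hold a CpG, and the shares over all promoters were not matched for CpG content.

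Of the 10 phosphatase genes, 5 had an LPS interval and 8 had an NT interval within 10 kb. Over all protein-coding genes these shares were 21.2% for LPS and 46.0% for NT. Both libraries had an interval at 5 of the genes (Dusp1, Dusp2, Dusp4, Dusp8 and Dusp14), against 20.6% of all genes. NT alone had one at 3 (Dusp6, Dusp7 and Dusp10), against 25.4% of all. Neither library had one at Dusp5 and Dusp16, while most of all protein-coding genes had none in either. No gene had one in LPS alone, against 0.635% of all. Among all genes with an NT interval 44.8% also had an LPS interval, and among these phosphatase genes 5 of 8 did.

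In intervals, the genes held 7 of the LPS list, which covered 14726 bases, and 11 of the NT list, which covered 23011 bases. All 7 LPS intervals met an NT interval, against 94.1% of the whole list, and 6 of the 11 NT intervals met an LPS interval, against 43.2%. The summit values were 15 to 23 in LPS, with a median of 21, and 21 to 65 in NT, with a median of 31. The LPS intervals were 1242 to 3360 bases wide and the NT intervals 1043 to 5986 bases.

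**Figure D1:**
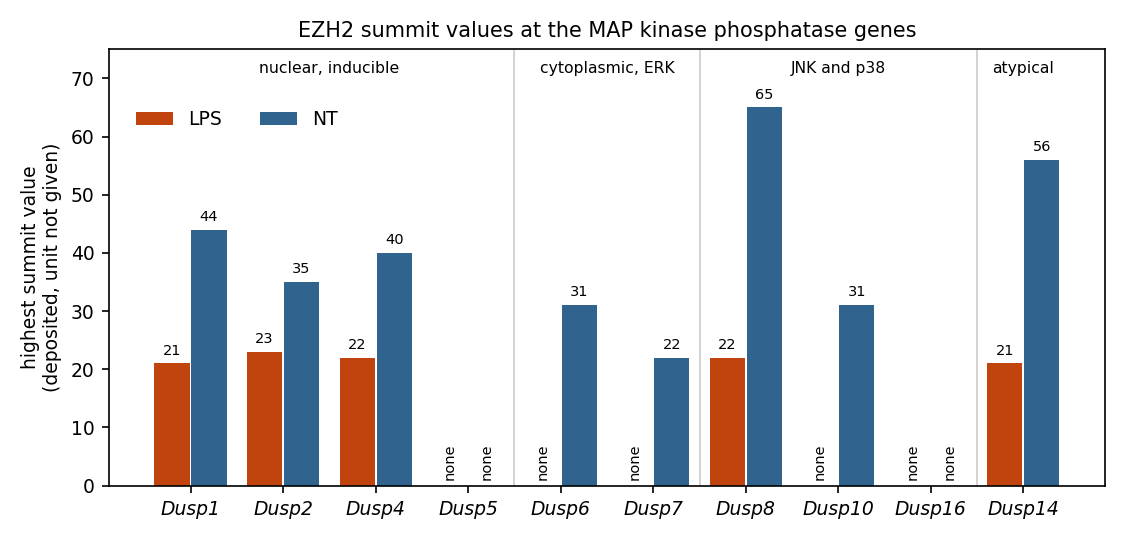
Highest summit value within 10 kb of each phosphatase gene (vertical axis, deposited values without a stated unit) in the LPS and the NT library, with genes grouped by role along the horizontal axis and 1 library per bar. The LPS bars of the 5 genes that have one lie between 21 and 23, while the NT bars of the same genes lie between 35 and 65.

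The 5 genes with an interval in both libraries had nearly equal highest values in LPS. These were 23 at Dusp2, 22 at Dusp4 and Dusp8, and 21 at Dusp1 and Dusp14. In NT the same genes had 35 at Dusp2, 40 at Dusp4, 65 at Dusp8, 44 at Dusp1 and 56 at Dusp14. The order of the NT values was thus not kept in LPS, where all lay within 2 units of each other. No spread between replicates is known for either library, so neighbours in these orders cannot be separated.

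The nuclear phosphatases come first. Dusp1, Dusp2, Dusp4 and Dusp5 are known as inducible enzymes of the nucleus. Of these 4, 3 had an interval in both libraries, against 20.6% of all genes. The role groups hold at most 4 genes, and differences between roles were not tested. Dusp1, which acts on p38 and JNK as well as ERK, lies on chromosome 17 from 26505591 to 26508472 (mm10) on the minus strand. Its LPS interval ran from 26507257 to 26508871 with a summit value of 21, and its NT interval from 26507150 to 26509244 with a value of 44. Both covered the transcription start. The LPS summit lay 408 bases and the NT summit 184 bases past the start, inside the gene. The ratio of LPS to NT value was 0.477, close to the median of 0.50 over all 4027 merged regions that both libraries share.

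Dusp2, an enzyme best known from activated blood cells, lies on chromosome 2 from 127336159 to 127338377 on the plus strand. Its LPS interval ran from 127335658 to 127337217 with a value of 23, and its NT interval from 127335696 to 127336738 with a value of 35. The LPS interval was 1560 bases wide and the NT interval 1043 bases, so Dusp2 was 1 of the genes where the LPS interval was the wider. The summits lay 49 bases past the start in LPS and 1 base from it in NT. Most deposited summits fell on a grid of 16 bases, so a distance of 1 base is finer than they resolve. The ratio of 0.657 was the highest among the phosphatase genes. It lay above 87.6% of all shared regions and above 91.0% of the 1029 whose NT value differed from that of Dusp2 by up to 5, and so inside the central 95% of shared regions, which ran from 0.282 to 0.824.

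Dusp4, which acts on ERK and JNK, lies on chromosome 8 from 34807610 to 34819894. The widest interval at any of the genes was here, an NT interval of 5986 bases from 34804481 to 34810466 with a value of 40. In LPS the same stretch held 2 intervals that were 986 bases apart. The larger of these, from 34807091 to 34810384, had a value of 22, and the smaller, from 34804863 to 34806104, had a value of 15. The LPS summit of the larger interval lay 64 bases from the NT summit. The ratio of the highest values was 0.550.

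Dusp5, which acts on ERK alone among these kinases, had no interval. The gene spans 53529145 to 53541809 on chromosome 19. The nearest LPS interval was 134135 bases from the gene, and the nearest NT interval was 57951 bases from it.

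**Figure D2:**
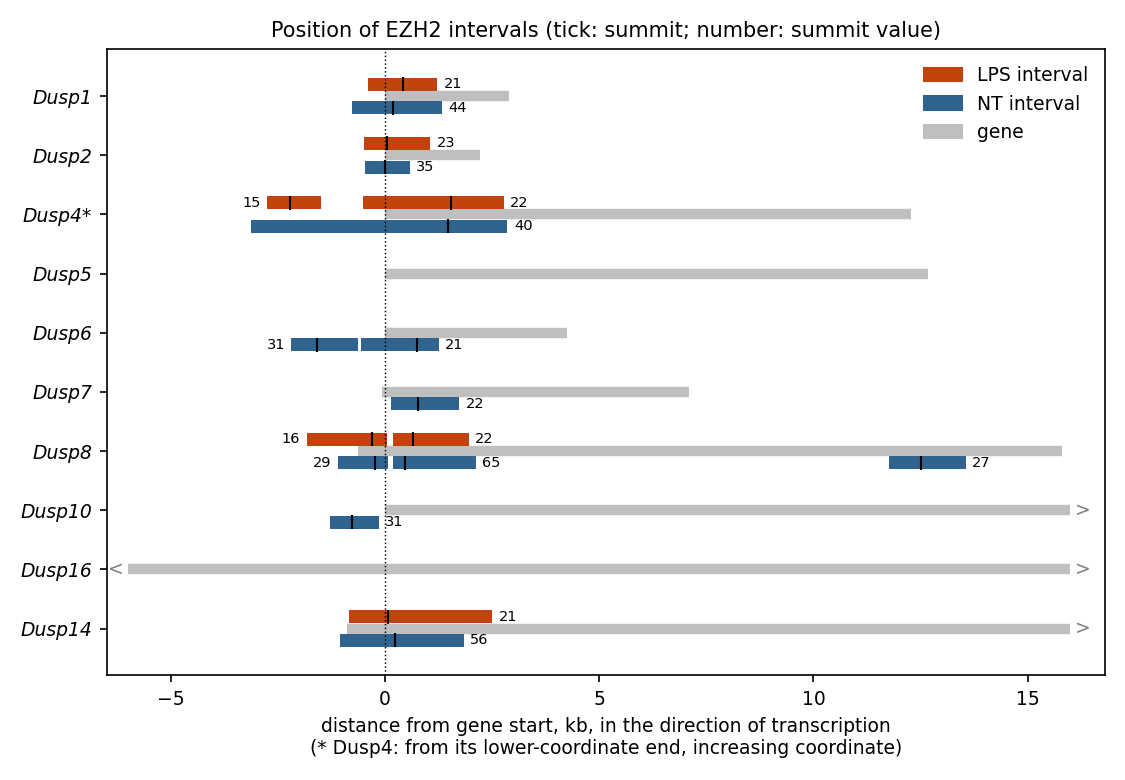
LPS intervals (upper bar) and NT intervals (lower bar) along each gene, with distance from the listed gene start in kb on the horizontal axis (for Dusp4, which has no listed start, from its lower-coordinate end), a tick at the summit and the summit value beside it. Genes longer than the axis are cut at its ends, and the intervals gather within a few kb of the start except for 1 NT interval with a value of 27 far inside Dusp8.

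Dusp6 and Dusp7 encode cytoplasmic phosphatases that act on ERK, and both genes had intervals in NT alone, against 25.4% of all genes. Dusp6, a feedback gene of ERK signalling, lies on chromosome 10 from 99263231 to 99267489. It had no LPS interval and 2 NT intervals that were 78 bases apart. The NT interval from 99261042 to 99262590 lay before the gene with a value of 31, and the one from 99262669 to 99264483 covered the start with a value of 21. The stronger summit lay 1599 bases before the start and the weaker one 737 bases past it. The nearest LPS interval was 747981 bases from the gene.

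Dusp7 lies on chromosome 9 from 106368560 to 106375724. It had no LPS interval and 1 NT interval with a value of 22, from 106368769 to 106370367. That interval began 137 bases past the listed start, so that it lay inside the gene and did not meet the promoter stretch. Of all 9643 NT intervals, 28.7% had a lower value than the one at Dusp7.

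Dusp8, Dusp10 and Dusp16 encode phosphatases that act on JNK and p38, and 1 had intervals in both libraries, 1 in NT alone and 1 in neither. Over all genes, 20.6% had intervals in both libraries and 25.4% in NT alone, and most had none. Dusp8, on chromosome 7 from 142079487 to 142095907 on the minus strand, had 2 LPS and 3 NT intervals. Over the first part of the gene, the LPS interval from 142093329 to 142095099 had a value of 22 and the NT interval from 142093171 to 142095105 a value of 65. The NT value ranked 593 among all NT intervals and was the highest of the 10 genes. The ratio of 0.338 was the lowest among the phosphatase genes, with 8.22% of shared regions below it. Around the start, the LPS interval from 142095235 to 142097118 had a value of 16 and the NT interval from 142095213 to 142096390 a value of 29, a ratio of 0.552.

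These neighbouring intervals at Dusp8 were 135 bases apart in LPS and 107 bases apart in NT, so the break between them lay at nearly the same place in both libraries. The stronger NT summit lay 468 bases past the start and the weaker one 236 bases before it. Another NT interval, from 142081728 to 142083514 with a value of 27, lay 11770 to 13556 bases past the start, and no LPS interval met it. At the 9 genes with a listed start, it was 1 of 2 NT intervals with a summit over 1 kb from that start, the other being the stronger one at Dusp6. A long non-coding RNA gene, Gm32786, from 142094166 to 142138277, overlaps the listed start of Dusp8 in the gene table.

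Dusp10 lies on chromosome 1 from 184034381 to 184075636. It had no LPS interval and 1 NT interval with a value of 31, from 184033100 to 184034231, which ended 150 bases before the gene. The summit lay inside a neighbouring protein-coding gene, 1700056E22Rik, so the interval may be counted to either gene. Dusp16, on chromosome 6 from 134715468 to 134807063, is the longest of the 10 genes and had no interval. The nearest LPS interval was 516278 bases from it and the nearest NT interval, with a value of 23, was 22695 bases from it. A long non-coding RNA gene, 1700055D16Rik, from 134792360 to 134821420, overlaps the listed start of Dusp16.

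Dusp14 encodes a small phosphatase without the kinase-binding domain of the others and is classed as atypical. It lies on chromosome 11 from 84048033 to 84069256 on the minus strand. The LPS interval from 84065852 to 84069211 had a value of 21, and the NT interval from 84066517 to 84069408 had a value of 56. The LPS interval was 3360 bases wide and the NT interval 2892 bases, so here too the LPS interval was the wider at a lower summit value. The summits lay 69 bases past the listed start in LPS and 229 bases past it in NT. The ratio of 0.375 lay above 14.8% of shared regions.

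**Figure D3:**
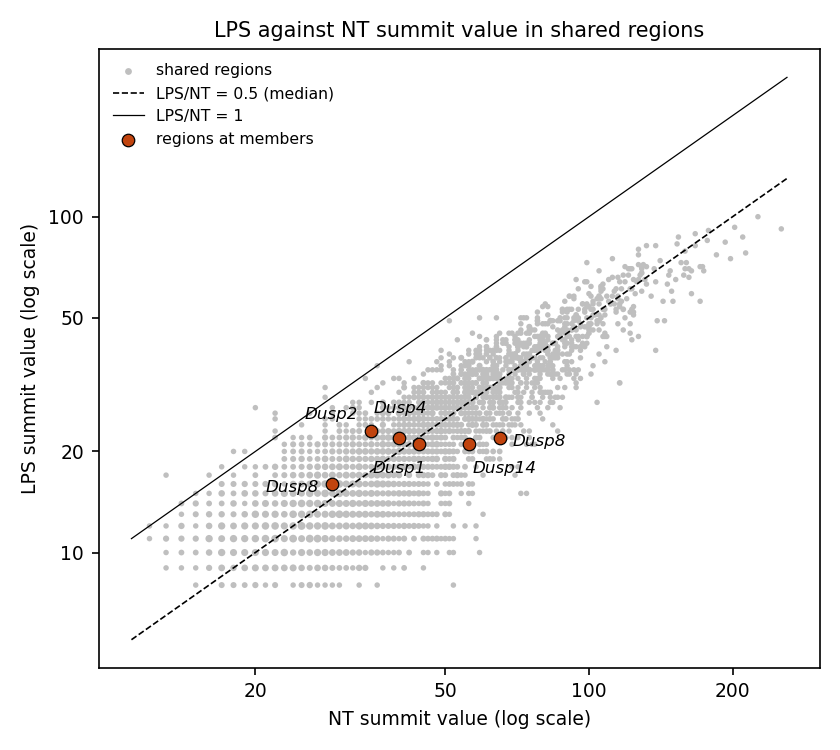
LPS summit value (vertical axis, log scale) against NT summit value (horizontal axis, log scale) in the 4027 merged regions shared by the libraries (grey) and in the 6 regions at phosphatase genes (red). The 6 regions lie between ratios of 0.338 and 0.657, on both sides of the dashed line at the median ratio of 0.50.

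The 6 shared regions at phosphatase genes had a median LPS to NT ratio of 0.514, against 0.50 over all shared regions. Of the 6, 3 lay below that median and all lay inside the central 95%. The ratio is not scaled to depth. The summits of both libraries lay 48 to 224 bases apart in these regions, against a median of 123 bases over all shared regions, and 95.6% of all summits fell on a grid of 16 bases.

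Whether an NT interval had an LPS partner went with its NT summit value across the whole list, and the phosphatase genes followed this order. The NT intervals with a partner had values of 29 and 65 at Dusp8, 35 at Dusp2, 40 at Dusp4, 44 at Dusp1 and 56 at Dusp14. Those without had 21 and 31 at Dusp6, 22 at Dusp7, 27 at Dusp8 and 31 at Dusp10. Values overlapped between 29 and 31, and above 31 every NT interval at these genes had a partner.

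Set beside NT intervals of like strength, the intervals of Dusp6, Dusp7 and Dusp10 without a partner lay at values where most had none. Among the 1812 NT intervals with a value within 3 of 31, the value at Dusp6 and Dusp10, 43.3% had an LPS partner, and 34.9% of those that were under 2 kb wide, as these were. For the value of 22 at Dusp7 the share was 23.6%. For the value of 44 at Dusp1 the share was 80.3%, and 96.6% of those at least 2 kb wide, as its interval was. For the value of 35 at Dusp2, where the interval had a partner, the share was 53.9% of 1247, and 41.3% of the 910 under 2 kb wide, as its interval was. For the weaker shared interval of Dusp8, with a value of 29, the share was 38.7% of 2155, and 31.6% of the 1816 under 2 kb wide.

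**Figure D4:**
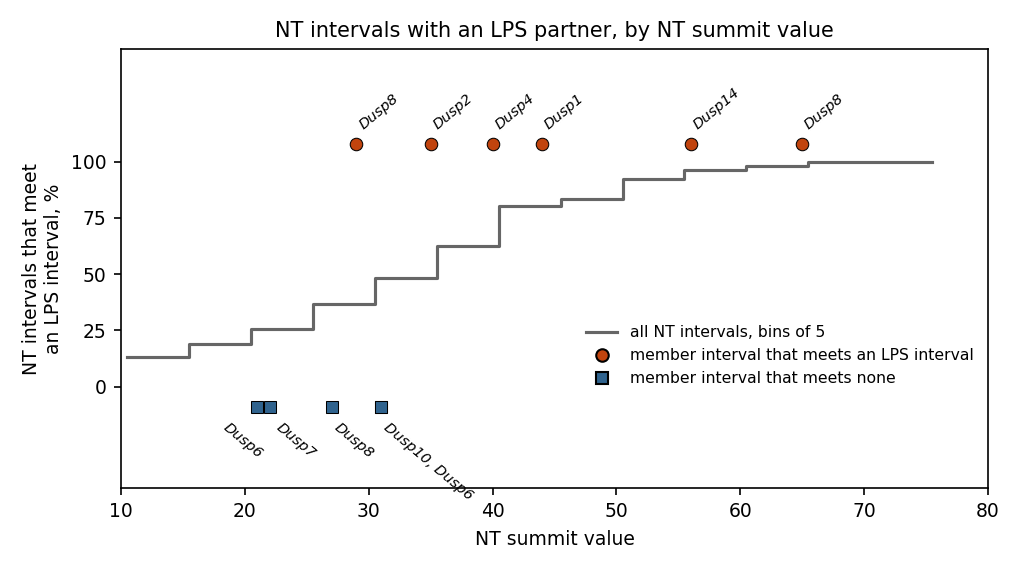
Share of all NT intervals that met an LPS interval (vertical axis, percent) by NT summit value in bins of 5 (horizontal axis), with the NT intervals at phosphatase genes marked above the line where they met an LPS interval and below it where they met none. The step line climbs from 13.0% at values of 11 to 15 to 100% at values of 66 to 70, and the marks change over near a value of 30.

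The other genes of the pathway were taken from 6 lists with 65 genes in all. Of these, 16 had an LPS interval (24.6%, against 21.2% of all genes) and 42 had an NT interval (64.6%, against 46.0%). Both libraries had one at 16 genes, NT alone at 26 and LPS alone at none. The values given below for genes of these lists are the highest of each library within 10 kb of the gene. Whether the LPS and NT values of a gene come from overlapping intervals was not examined, so a pair need not describe the same site. Among the 15 other dual-specificity phosphatases, most of them small atypical enzymes, 4 had an LPS interval and 9 an NT interval. Dusp3 had the highest values of these lists' phosphatases, 42 in LPS and 90 in NT, but that NT summit was 6917 bases from Dusp3 and nearest to Sost, a bone-cell gene. Dusp28 had 19 in LPS and 50 in NT, and Dusp15 had 28 in LPS and 40 in NT, each with the NT summit inside the gene. Dusp9, the remaining typical MAP kinase phosphatase of this set, had 15 in LPS and 23 in NT.

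The Sprouty and Spred genes encode inhibitors that act on the Ras to ERK route, and 2 of 7 had an LPS interval and 6 of 7 an NT interval. Spry1 had summit values of 33 in LPS and 63 in NT. Spry4 had 31 in LPS and 55 in NT. Spred3 had no LPS interval and 34 in NT, with the summit nearest to the neighbouring gene Fam98c. The values at Spry1 and Spry4 in LPS were above the highest LPS values of the 5 phosphatase genes that had one.

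Of the 13 MAP kinase genes, 5 had an LPS and 9 an NT interval. Mapk11 and Mapk12, neighbours that encode p38 kinases, shared the highest interval, with 48 in LPS and 100 in NT, and its NT summit lay in Mapk12. Mapk15, an atypical MAP kinase, had 38 in LPS and 74 in NT. Of the 7 kinases that activate MAP kinases, 2 had an LPS and 4 an NT interval. Map2k1, which activates ERK, had 10 in LPS and 52 in NT, Map2k3, which activates p38, had 30 in NT alone, and Map2k5 had 16 in LPS and 25 in NT.

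Of the 13 kinases a step further up, 3 had an LPS and 9 an NT interval. Map3k5 had 15 in LPS and 42 in NT, with that summit 6818 bases from the gene and nearest to Map7. Map3k2 had 9 in LPS and 39 in NT. Map3k8, the kinase that links LPS to ERK in macrophages, and Map3k7, the TAK1 kinase, had 34 each in NT alone. The 10 kinases that MAP kinases activate had no LPS interval, and 5 had an NT interval, among them Mapkapk2 with 26 and Rps6ka4 with 23, while the 29 counted for Mknk1 had its summit nearest to Mob3c.

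**Figure D5:**
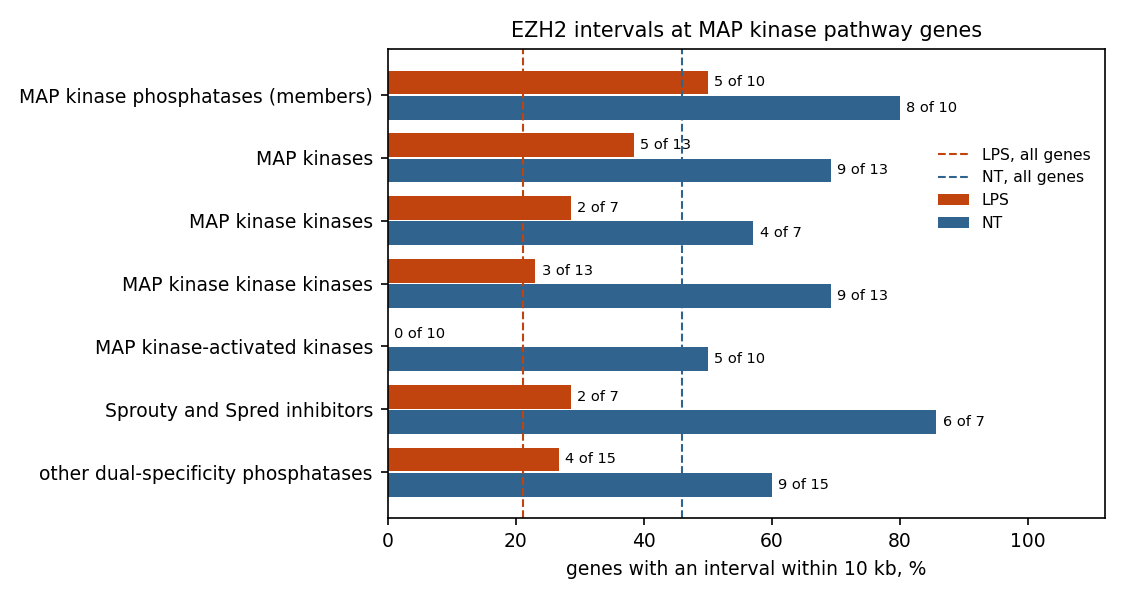
Share of genes with an interval within 10 kb (horizontal axis, percent) in LPS and in NT for the phosphatase genes and 6 lists of other MAP kinase pathway genes, with counts beside the bars and dashed lines at 21.2% for LPS and 46.0% for NT over all protein-coding genes. In every list the NT bar is the longer, and the list of MAP kinase-activated kinases has no LPS interval.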

How the data were processed

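EZH2 was measured by ChIP-seq in 1 LPS and 1 NT macrophage library. BWA (a read aligner), SICER (a caller of broad islands) and the build mm10 are named in the submitters' processing notes, without versions or roles. Intervals and summits were deposited by the authors per library, with a score of unstated unit at each summit, here the summit value. Positions were deposited as BED coordinates and are printed 1-based, summits as deposited, so distances between summits and starts can be off by 1 base. Use of the input, duplicate removal and depth are not given in the sources used here.

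Genes were placed with a RefSeq table of GRCm38.p6. The listed start is 250 bases from the outer end of each RefSeq promoter window of 300 bases. Intervals meeting the gene with 10 kb on each side by 1 bp were counted with Python 3.11.15 and pandas 2.3.3, and the counting was checked on simulated intervals. Summit values were compared in the 9785 merged regions of the deposited file. Exons and introns were not analysed here, and no test was possible with 1 library per condition.

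The members and lists were chosen with earlier results of these data known. Genes named were the 10 phosphatase genes, the up to 3 highest in NT of each pathway list (4 where Map3k7 and Map3k8 tied), any with LPS alone, and nearer neighbours. Some marker genes with an interval, and long non-coding RNA genes over a listed start, were also named. Dusp9 was chosen after its values were seen.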

Additional observations from a re-analysis of the deposited data

How the results depend on the processing

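Of 79 recomputed values, 73 stayed within 1.5 times for counts, or equal for ratios, and 6 moved. Both stricter lists hold fewer intervals by design, and the cause of the moves was otherwise not tested. Where only intervals with a summit value no lower than their library's median were kept, 10 other pathway genes had an LPS interval, 9 had one in both libraries and 1 had LPS alone. Shortening the NT list to as many intervals as the LPS list left 14 with NT alone and 2 with LPS alone. The median ratio at the phosphatase genes was 0.477 with the highest interval of the whole window. For the phosphatase genes, the LPS count was 5 in windows of 0, 2.5 and 20 kb, with summits inside the window and with the median cut. The NT count was 7 with the gene body alone and under both stricter lists. Shortening the NT list left the LPS list whole, so LPS counts under it were fixed in advance. These fixed counts are among the 73 that stayed. So are ratios of single shared regions at phosphatase genes. Under the median cut these ratios could not move, because their summit values were no lower than the medians of 16 in LPS and 27 in NT. With the highest interval of the whole window, genes with 1 shared region kept the same pair of intervals. No paired analysis was possible because there was a single library of each condition.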
